A study of Mus musculus with 4 samples.

Results

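The genes described here are 50 genes of the contractile apparatus and of the calcium handling that drives it, taken by symbol from the 32285 genes of the deposited matrices. All 50 were found in the gene list, and each had UMIs in at least 1 sample. By the role of their proteins, 15 belong to the thin filament, 10 to the thick filament and M-band, 12 to the Z-disc and titin, 5 to filament assembly, kinases and energy supply, and 8 to calcium handling. They lie on 18 chromosomes. The genes were picked by function and symbol, and the list was set with earlier results of these data known. Single cell RNA-sequencing was performed on tdTomato+ cells sorted from skeletal muscle of C57BL/6J mice aged 3 to 4 months, 14 days after tamoxifen. Control mice carried Pax7CreERT2/+ and Rosa26-tdTomato and lacked floxed catenin alleles. α-cdKO mice carried, in addition, Ctnna1fl/fl and Ctnna3fl/fl, so that CreERT2 made under the *Pax7* promoter deleted αE- and αT-catenin in muscle stem cells (MuSCs) and in cells derived from them. Each of the 4 samples, 2 per genotype, was pooled from 2 littermates, and mice of both genotypes received tamoxifen and carried the same Cre and reporter.

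Contraction needs an ordered array of actin thin filaments, carrying tropomyosin and the troponin complex, and myosin thick filaments, held in register by the Z-disc, titin and the M-band. Calcium leaves the sarcoplasmic reticulum through the ryanodine receptor when the voltage sensor in the T-tubule moves, binds troponin, and is pumped back by the SERCA ATPase. Quiescent MuSCs make little of this machinery. When they differentiate, the transcription factor myogenin (*Myog*) rises, then the fusion protein Myomaker (*Mymk*), and contractile genes are switched on in forms that are typical of embryonic and regenerating muscle, among them cardiac α-actin (*Actc1*) and cardiac troponin T (*Tnnt2*), before adult fast and slow forms take over.

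Promoters of muscle genes are known for E-boxes, bound by MyoD and myogenin, for CArG boxes, bound by serum response factor, and for sites of MEF2 factors. The 250 bases before the start of transcription are shown for 5 of the genes that rose at differentiation. They are also shown for *Mylpf*, the fast myosin regulatory light chain, as a fibre gene not called higher there. The 5 were not those with the largest rise: *Tnnt2*, *Mypn* and *Tnni1* rose more than *Acta1* and *Ttn* at the second step described below and are not shown. Sequences are those of RefSeq on GRCm38.p6, written 5′ to 3′ along the gene, with E-boxes (CANNTG), CArG boxes and MEF2 sites found by a search of both strands in capitals. The regions are chr2:114052876-114053125 (minus strand) for *Actc1*, chr8:123894776-123895025 (minus) for *Acta1*, chr2:69669870-69670119 (plus) for *Klhl41*, chr13:32783965-32784214 (minus) for *Mylk4*, chr2:76982548-76982797 (minus) for *Ttn* and chr7:127211358-127211607 (plus) for *Mylpf*. The *Actc1* stretch lies within the annotated genes *Actc1* and *A530058N18Rik*, and its last 12 bases overlap an annotated exon. The *Mylpf* stretch lies within the annotated *Mylpf* gene and the *Acta1* stretch within *Gm20388*. Apart from that of *Actc1*, no stretch overlaps an annotated exon.
Actc1: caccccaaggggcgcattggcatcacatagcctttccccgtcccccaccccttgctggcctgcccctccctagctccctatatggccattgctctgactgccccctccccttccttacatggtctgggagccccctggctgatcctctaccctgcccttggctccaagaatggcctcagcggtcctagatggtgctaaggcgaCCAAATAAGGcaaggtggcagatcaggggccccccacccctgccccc
Acta1: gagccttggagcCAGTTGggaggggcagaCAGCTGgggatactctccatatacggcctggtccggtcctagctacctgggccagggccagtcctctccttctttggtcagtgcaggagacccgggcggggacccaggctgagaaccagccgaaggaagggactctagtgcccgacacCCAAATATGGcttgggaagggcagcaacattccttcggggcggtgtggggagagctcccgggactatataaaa
Klhl41: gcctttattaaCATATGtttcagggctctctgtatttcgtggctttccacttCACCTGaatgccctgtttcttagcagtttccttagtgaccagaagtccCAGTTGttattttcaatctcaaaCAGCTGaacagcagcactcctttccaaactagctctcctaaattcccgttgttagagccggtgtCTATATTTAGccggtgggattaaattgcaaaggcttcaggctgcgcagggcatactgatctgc
Mylk4: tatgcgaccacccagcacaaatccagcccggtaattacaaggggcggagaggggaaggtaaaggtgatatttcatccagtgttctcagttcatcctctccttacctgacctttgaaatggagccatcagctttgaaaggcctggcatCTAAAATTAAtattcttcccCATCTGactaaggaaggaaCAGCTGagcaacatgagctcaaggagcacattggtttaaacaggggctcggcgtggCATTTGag
Ttn: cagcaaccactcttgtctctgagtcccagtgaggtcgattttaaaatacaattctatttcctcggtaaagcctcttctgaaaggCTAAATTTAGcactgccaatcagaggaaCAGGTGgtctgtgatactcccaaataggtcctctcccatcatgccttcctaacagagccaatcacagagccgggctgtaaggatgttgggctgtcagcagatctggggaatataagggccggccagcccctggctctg
Mylpf: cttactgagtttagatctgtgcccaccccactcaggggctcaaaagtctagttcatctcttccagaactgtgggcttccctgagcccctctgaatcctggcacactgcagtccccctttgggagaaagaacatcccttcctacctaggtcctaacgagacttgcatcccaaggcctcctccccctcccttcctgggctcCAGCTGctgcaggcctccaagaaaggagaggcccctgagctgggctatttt
In *Actc1* the CArG box began 47 bases before the start and no E-box lay in the window, whereas *Acta1* held a CArG box at 73 bases and E-boxes at 238 and 221 bases. *Klhl41*, *Mylk4* and *Ttn* each held an MEF2 site, at 63, 103 and 166 bases, together with 4, 3 and 1 E-boxes. *Mylpf* held 1 E-box, at 51 bases. Promoters were matched for 37 of the 50 genes, and none was matched for *Lmod3*, *Myoz1*, *Neb*, *Sln*, *Actn3*, *Cacng1*, *Tnni2*, *Myot*, *Tcap*, *Mylk2*, *Xirp1*, *Myom2* and *Tnnt3*. An E-box of any kind lay in 30 of the 37 (81.1%) and in 66.0% of all 27025 promoters. The E-box CAGCTG, counted among these too, lay in 16 (43.2%) and in 12.8% of all promoters. CArG boxes lay in 5 (13.5% against 1.40%) and MEF2 sites in 6 (16.2% against 3.01%). TATAAA lay in 5 of the 37, or 13.5%, against 12.97% of all. Of the 37 genes, 21 were called higher at a step of differentiation described below and 16 were not. E-boxes lay in 17 of the 21 and 13 of the 16, and CAGCTG in 11 and 5. CArG boxes lay in 2 and 3, MEF2 sites in 3 and 3, and TATAAA in 5 and 0. The 5 rising genes shown were the only ones of the 21 with a CArG box or an MEF2 site, so they do not stand for the 21. *Mylpf* held neither, so it does not stand for the 16. These counts describe letters in a window and do not show that a factor bound there.

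A UMI marks 1 RNA molecule, counted at its 3′ end. Barcodes entered the comparisons with 1000 or more UMIs, 400 or more detected genes and less than 15% of UMIs from mitochondrial genes. In each value series below, the 4 numbers run in the order control replicate 1, control replicate 2, α-cdKO replicate 1 and α-cdKO replicate 2. The files held 5853, 6319, 10649 and 8433 barcodes with 46099310 to 74921651 UMIs per sample, of which 5484, 5354, 9786 and 8166 were kept, with a median of 6452.5 to 8075 UMIs. Pairs of libraries shared 10 to 28 barcodes, at most 0.427% of the smaller library. *Ctnna1* stood at 91.1, 74.3, 79.5 and 75.5 counts per 1000000 UMIs (CPM) over myogenic cells and *Ctnna3* at 0.0214, 0.0721, 0.0427 and 0.122 CPM. The position of the floxed exons relative to the counted 3′ ends is not given in the sources used here, so these counts do not check the deletion.

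Kept cells were placed along differentiation by UMIs of *Myog* and *Mymk*, and none of the 50 genes was used for this. Mymk+ cells had at least 1 *Mymk* UMI and numbered 35, 83, 222 and 152. Myog+ Mymk- cells had *Myog* but no *Mymk* UMI and numbered 33, 80, 199 and 98. Myog- Mymk- cells, the remaining myogenic cells, numbered 5227, 4405, 9020 and 7782. Mature-muscle barcodes were those with at least 1% of UMIs from 12 genes of adult fibres outside the list (among them *Myh1*, *Myh4* and *Mb*), and numbered 114, 735, 243 and 65. Non-myogenic cells, carrying at least 4 markers of endothelial, immune, glial, fibroblast or mural cells, numbered 75, 51, 102 and 69. As a share of kept cells, Mymk+ cells made up 0.638%, 1.55%, 2.27% and 1.86%, higher in both α-cdKO samples than in both controls, with an exact permutation p of 0.333, the smallest that 2 against 2 samples allow (two-sided). Myog+ Mymk- cells made up 0.602%, 1.49%, 2.03% and 1.20%, and the genotypes overlapped (exact permutation p = 0.667).

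Control replicate 2 stood apart. Mature-muscle barcodes made up 13.7% of its kept cells, against 2.08%, 2.48% and 0.796% in the other samples, and 15.3% of its barcodes failed the filter, against 3.17% to 8.10%. Mature-muscle barcodes differed from intact cells. Their median UMI count was 3202, 2734, 2954 and 3048, and their median mitochondrial share was 0.0517%, 0.0460%, 0.113% and 0.0598%, where every other state had a median of at least 3.60%. They were tdTomato+ by the sort, and the gate that chose them fixed the high level of the 12 genes, 24730 to 30712 CPM. In Mymk+ cells the same 12 genes summed to 271, 518, 291 and 301 CPM, and in Myog- Mymk- cells to 64.1, 141, 99.1 and 58.1 CPM. The 10 mural markers, which include the smooth muscle genes *Acta2* and *Tagln*, moved with differentiation: they summed to 380.4 to 559.5 CPM in Myog- Mymk- cells, 1193 to 1365 CPM in Myog+ Mymk- cells and 2603 to 3112 CPM in Mymk+ cells, where 4, 4, 7 and 5 of the 10 had a UMI and the defining mural genes *Rgs5* and *Myh11* were at 0 in all samples. The part of any mural RNA in the results was not tested. Barcodes that failed the filter held the 50 genes at 15652, 45866, 16120 and 13135 CPM, highest in control replicate 2, and whether this RNA lay inside or outside of cells was not tested.

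The 50 genes together took 528, 1619.6, 900.3 and 564 CPM in Myog- Mymk- cells, 712, 2637, 1266 and 1157 CPM in Myog+ Mymk- cells and 4927, 8900.1, 6160.4 and 6699.6 CPM in Mymk+ cells. In mature-muscle barcodes they took 248985, 289006, 282513 and 311902 CPM. Non-myogenic cells, which should lack most of these proteins, held 499.7, 4548, 1309 and 892 CPM, so the sum in Myog- Mymk- cells lay below the non-myogenic sum in 3 of 4 samples. The non-myogenic cells included fibroblast and mural cells, and *Tpm1* and *Tpm2*, described below, made up a large part of their sum. The order of the sums therefore rests in part on these genes. Control replicate 2 had the highest sum of the samples in every one of these states but the mature-muscle barcodes. At an equal depth of 2000 UMIs per cell, the median Myog- Mymk- cell showed 1, 1, 1 and 0 of the 50 genes, the median Mymk+ cell 3, 5, 4 and 4, and the median mature-muscle barcode 23, 23, 22 and 23.

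**Figure D1:**
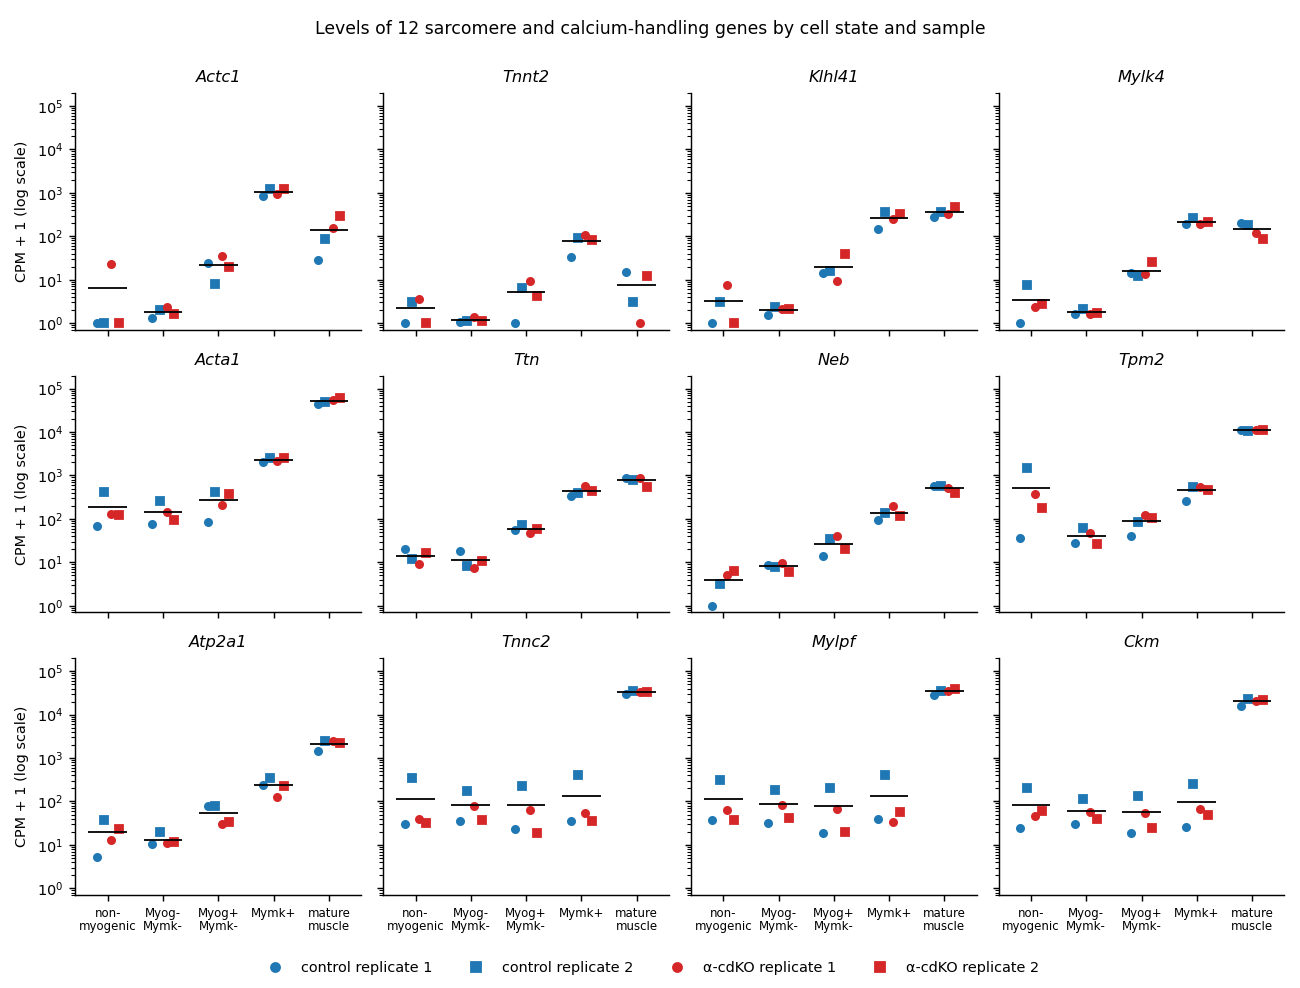
Level of 12 of the genes in each cell state, as CPM + 1 on a log scale, with 1 panel per gene, 1 point per sample (controls in blue, α-cdKO in red) and a line at the mean of the 4 samples. Actc1 stood near 1 CPM in Myog- Mymk- cells and near 1000 CPM in Mymk+ cells, while Ckm stood at no more than 254 CPM in any myogenic sum and at 15843 to 22366 CPM in mature-muscle barcodes.

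The first step compared Myog+ Mymk- with Myog- Mymk- cells within each sample, to ask which contractile genes come on with *Myog*. Sums of UMIs per sample and state entered edgeR's quasi-likelihood test over 9031 genes, with samples as blocks and Benjamini-Hochberg adjustment. Of the 50 genes, 38 passed the filter on low counts, 19 of these were higher in Myog+ Mymk- cells and 0 were lower, where 15.9% of all tested genes were called higher and 14.2% lower. The genes had a median log2 fold change of 0.73, against 0.01 for all tested genes. Called higher were 8 of 12 tested genes of the thin filament, 1 of 8 of the thick filament, 4 of 8 of the Z-disc, 3 of 5 of assembly, kinases and energy, and 3 of 5 of calcium handling. A gene could pass the filter through the state in which it was high, so these counts describe the tested genes. Not tested were *Tnnc1*, *Tmod4*, *Lmod3*, *Mybpc2*, *Myom2*, *Myoz2*, *Myot*, *Csrp3*, *Smpx*, *Casq1*, *Casq2* and *Cacna1s*, each with a mean under 5 CPM in Myog+ Mymk- cells. DESeq2 called 17 higher and 0 lower, and at an unadjusted p under 0.05 edgeR had 2 lower, where 19.3% of all tested genes were. Without control replicate 2, 4 genes were called lower at this step.

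Among thin filament genes, *Actc1*, the cardiac α-actin used by young muscle, gave the largest rise. It stood at 0.284, 0.964, 1.32 and 0.645 CPM in Myog- Mymk- cells and 23.8, 6.81, 33.3 and 18.3 CPM in Myog+ Mymk- cells. The states did not overlap, and the log2 fold change was 4.55 ± 0.40 (SE), adjusted p = 3.76e-07. *Tnnt2*, cardiac troponin T, had 0 UMIs in the Myog+ Mymk- cells of control replicate 1 and stood at 3.19 to 8.20 CPM in the other samples, against at most 0.352 CPM before (4.43 ± 0.46 (SE)). *Neb*, nebulin, which runs along the thin filament, rose from 7.44, 6.83, 8.76 and 5.00 to 13, 32.7, 38.4 and 19.1 CPM (1.74 ± 0.21 (SE), adjusted p = 1.3e-05). *Tpm2*, β-tropomyosin, rose from 26.3, 61.8, 47.3 and 25.5 to 39, 83, 125 and 102 CPM (1.01 ± 0.20 (SE), adjusted p = 0.00101). Both rose in every sample, and the values of the 2 states overlapped across samples for *Tpm2* but not for *Neb*. *Acta1*, the adult skeletal α-actin, went from 76.8, 255, 145 and 92.4 to 82.3, 419, 212 and 372 CPM, a small step (0.78 ± 0.25 (SE), adjusted p = 0.0235) in which control replicate 1 hardly moved. The *Acta1* call was lost without α-cdKO replicate 2 (0.39, adjusted p = 0.255), with DESeq2 (adjusted p = 0.195) and with at least 2000 UMIs per cell (adjusted p = 0.0988). The remaining calls were *Tmod1* (0.68), a cap of the filament's pointed end, slow troponin T *Tnnt1* (0.54) and α-tropomyosin *Tpm1* (0.49). *Tmod1* was not called without control replicate 1 (0.56, adjusted p = 0.122) or α-cdKO replicate 1 (0.59, adjusted p = 0.149), nor *Tnnt1* without control replicate 2 (0.38, adjusted p = 0.111) or α-cdKO replicate 1 (0.52, adjusted p = 0.115).

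Of the thick filament only *Myl4*, the embryonic essential light chain, was called. It stood at 4.20, 4.62, 5.31 and 5.83 CPM and then 6.49, 29.95, 16.9 and 18.3 CPM (1.68 ± 0.27 (SE), adjusted p = 0.000205), and control replicate 1 moved least. *Ttn*, titin, the spring that spans from Z-disc to M-band, rose from 17.4, 7.21, 6.45 and 9.60 to 54.1, 70.8, 46.1 and 59 CPM (2.36 ± 0.31 (SE), adjusted p = 2.77e-05). No Myog- Mymk- value of *Ttn* reached the lowest Myog+ Mymk- value. The other Z-disc calls were *Xirp1* (3.26), an actin-binding protein, *Actn2* (2.24), the α-actinin of all fibre types, and *Tcap* (0.89), the titin cap. *Tcap* reached 103 CPM in control replicate 2 but 6.49, 14.9 and 12.8 CPM in the other samples, so the rise was by far the largest in that replicate. Without it neither *Tcap* (0.20, adjusted p = 0.641) nor *Xirp1* (1.91, adjusted p = 0.0958) was called, and *Tcap* was also lost without α-cdKO replicate 2 (0.89, adjusted p = 0.109).

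Among assembly factors and kinases, *Klhl41*, a kelch protein that stabilizes thin filament proteins, rose from 0.569, 1.35, 1.12 and 1.13 to 13, 15, 8.20 and 38.3 CPM (3.90 ± 0.34 (SE), adjusted p = 3.64e-07). Its relative *Klhl40* rose from 1.36, 1.17, 2.08 and 2.18 to 8.66, 20.4, 10.2 and 2.39 CPM (2.10 ± 0.55 (SE), adjusted p = 0.00788), least in α-cdKO replicate 2, and the call was lost without control replicate 2 (1.46, adjusted p = 0.0684). *Mylk4*, a kinase of the myosin light chain kinase family, rose from 0.635, 1.14, 0.643 and 0.717 to 13, 10.9, 12.8 and 23.9 CPM (4.18 ± 0.28 (SE), adjusted p = 2.07e-08). For *Klhl41* and *Mylk4* every Myog+ Mymk- value lay above every Myog- Mymk- value. In calcium handling, *Atp2a1*, the SERCA1 pump, went from 9.63, 18.6, 9.91 and 10.4 to 75.8, 79, 28.7 and 33.5 CPM (1.82 ± 0.20 (SE), adjusted p = 5.45e-06), with both controls above both α-cdKO samples after the step. *Ryr1*, the calcium release channel, went from 4.03, 3.76, 3.92 and 3.18 to 17.3, 16.3, 16.4 and 11.2 CPM (1.85 ± 0.22 (SE), adjusted p = 1.41e-05) and its states did not overlap. *Cacng1*, a subunit of the voltage sensor, was also called (2.32), whereas the pore subunit *Cacna1s* had 0 UMIs in Myog+ Mymk- cells of 3 samples and 0.798 CPM in α-cdKO replicate 2.

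The second step compared Mymk+ with Myog+ Mymk- cells in the same fit. Of the 38 tested genes, 23 were higher in Mymk+ cells and 3 lower, where 16% of all tested genes were called higher and 19.4% lower, and the median log2 fold change was 1.03 against -0.03 for all tested genes. By role, 8 of 12 thin filament genes were higher, 4 of 8 thick filament genes were higher and 1 lower, 4 of 8 Z-disc genes were higher and 2 lower, 4 of 5 assembly, kinase and energy genes were higher, and 3 of 5 calcium genes were higher. Across both steps, 17 genes were called higher at each, 2 (*Tcap* and *Tpm1*) at the first step alone, 6 (*Ckm*, *Mybph*, *Myl1*, *Myl2*, *Mypn* and *Tnni1*) at the second alone, and 13 at neither. With at least 2 UMIs to be positive, *Mybph*, *Mypn* and *Tnni1* were called higher at the first step. When the deepest cells, the likeliest doublets, were left out, 28 genes were tested and 13 were called higher at the second step. Of the other 10, *Myl2*, *Mybph*, *Mypn* and *Xirp1* were then not tested, and *Tnnt1*, *Myl1*, *Myl4*, *Actn2*, *Ryr1* and *Ckm* were tested and not called. Mymk+ cells were deep as a state, with medians of 12888 to 18808 UMIs, and only 16, 34, 116 and 88 of them remained in this setting. Whether doublets or the smaller number of cells changed these calls was not tested.

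*Actc1* again led, at 869, 1204, 944 and 1242 CPM in Mymk+ cells (5.62 ± 0.27 (SE), adjusted p = 1.09e-09), a mean of 1065 ± 186 CPM (SD, n = 4). *Acta1* reached 2019, 2493, 2110.3 and 2475 CPM (3.13 ± 0.26 (SE), adjusted p = 1.24e-07). Both actins stood in all 4 samples far above any Myog+ Mymk- value. *Tnnt2* reached 32.3, 90.6, 107 and 80.9 CPM (4.05 ± 0.26 (SE), adjusted p = 7.62e-09), lowest in control replicate 1. *Tnni1*, slow troponin I, went from 0, 0, 1.54 and 3.19 to 18.4, 16.1, 34 and 24.9 CPM (3.99 ± 0.44 (SE), adjusted p = 2.63e-06), and *Neb* reached 95.3, 136, 195 and 114 CPM (2.32 ± 0.18 (SE), adjusted p = 9.47e-08). In both, the lowest Mymk+ value lay above the highest Myog+ Mymk- value. With the mature-muscle gate at 2% the *Tnni1* call was lost (0.55, adjusted p = 0.609). *Tpm2* rose further, to 252, 540.4, 554 and 467 CPM (2.28), and *Tmod1* (0.84) and *Tnnt1* (0.90) rose less, *Tmod1* not past the test without α-cdKO replicate 2 (0.74, adjusted p = 0.0736).

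Thick filament genes called higher were *Mybph*, a myosin-binding protein of the C type (4.14), *Myl2* (1.98), the slow regulatory light chain, *Myl1* (1.43), the fast essential light chain, and *Myl4* (0.83). With at least 2 UMIs to be positive, *Mybph* (1.52, adjusted p = 0.247), *Myl2* (0.49, adjusted p = 0.488) and *Myl4* (0.13, adjusted p = 0.797) were not called. *Myl4* was not called without control replicate 1 (0.63, adjusted p = 0.0726), α-cdKO replicate 1 (0.89, adjusted p = 0.0558) or α-cdKO replicate 2 (0.69, adjusted p = 0.157). *Mybph* went from 2 UMIs over all Myog+ Mymk- cells to 15.4, 8.06, 6.54 and 8.69 CPM. At the Z-disc, *Ttn* reached 337, 393, 560.4 and 447 CPM (2.94 ± 0.27 (SE), adjusted p = 4.35e-07), with every sample above its Myog+ Mymk- values. *Mypn*, myopalladin, which ties nebulin to α-actinin, reached 12.3, 20.8, 25.5 and 16.2 CPM from 0, 2.72, 1.02 and 0.798 CPM (4.12 ± 0.48 (SE), adjusted p = 4.76e-06). *Xirp1* reached 19.99, 18.1, 25.5 and 29.1 CPM (2.95 ± 0.51 (SE), adjusted p = 0.000261), above every Myog+ Mymk- value of 0 to 10.9 CPM. *Actn2* reached 16.9, 38.9, 37 and 29.1 CPM (2.20).

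*Klhl41* reached 145, 356, 247 and 319 CPM (3.86 ± 0.23 (SE), adjusted p = 4.81e-09) and *Mylk4* 191, 258, 194 and 211 CPM (3.71 ± 0.18 (SE), adjusted p = 1.09e-09). Neither overlapped the state before. *Klhl40* reached 6.15, 43, 81.5 and 41.2 CPM (2.31), where control replicate 1 did not rise and α-cdKO replicate 1 was highest. *Atp2a1* reached 241, 346, 129 and 232 CPM (2.21), *Ryr1* 49.2, 32.2, 28.8 and 23.8 CPM (1.01) and *Cacng1* 21.5, 29.5, 26.2 and 29.5 CPM (1.65). For *Ckm*, muscle creatine kinase, the call was small (0.67 ± 0.20 (SE), adjusted p = 0.0141), and its levels of 24.6, 254, 66.7 and 48 CPM were highest in control replicate 2. The *Ckm* call was lost without control replicate 2 (0.54, adjusted p = 0.0531) or α-cdKO replicate 2 (0.60, adjusted p = 0.0656), and its sign changed without the deepest cells (-0.66, adjusted p = 0.112) and with the gate at 2% (-1.38, adjusted p = 0.00432).

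Lower in Mymk+ cells were *Tcap*, *Mybpc1* and *Actn3*. *Mybpc1*, slow myosin-binding protein C, went from 39, 35.4, 20.5 and 18.3 to 3.07, 5.37, 13.4 and 8.31 CPM (-1.50 ± 0.31 (SE), adjusted p = 0.0011), below its Myog- Mymk- level of 21.3, 18.3, 20.6 and 18.8 CPM in every sample. *Actn3*, the α-actinin of fast fibres, went from 26, 34, 16.9 and 16.7 to 9.22, 38.9, 5.56 and 7.93 CPM (-0.79 ± 0.28 (SE), adjusted p = 0.0401), and control replicate 2 alone did not fall. The *Actn3* call was lost without control replicate 1 (-0.70, adjusted p = 0.113), α-cdKO replicate 1 (-0.52, adjusted p = 0.233) or α-cdKO replicate 2 (-0.68, adjusted p = 0.163), with at least 2000 UMIs per cell (adjusted p = 0.0912) and with at least 2 UMIs to be positive (adjusted p = 0.0512). *Tcap* went from 6.49, 103, 14.9 and 12.8 to 3.07, 33.6, 4.91 and 3.78 CPM (-1.60 ± 0.40 (SE), adjusted p = 0.00461) and was lower in all samples.

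The order of onset was described as the share of a gene's total rise, from Myog- Mymk- to Mymk+ cells, that was already present in Myog+ Mymk- cells. By the means over samples, the share was 1.86% for *Actc1*, 4.08% for *Mypn*, 5.21% for *Tnnt2*, 6.05% for *Acta1*, 6.62% for *Klhl41* and 6.75% for *Mylk4*. It was 11.2% for *Ttn*, 11.4% for *Tpm2*, 14.7% for *Neb* and 18.7% for *Atp2a1*, and higher for *Ryr1* (38.9%), *Myl4* (43.5%) and *Tpm1* (73%). The actins, *Tnnt2*, *Klhl41* and *Mylk4* thus made nearly all of their rise with *Mymk*, and *Ryr1* and *Myl4* a larger part of it before. Per sample the share ran from 0.486 to 3.39% for *Actc1*, from 7.16 to 16.5% for *Ttn* and from 29.4 to 50.2% for *Ryr1*, so these 3 genes did not overlap. *Acta1* (0.282 to 11.7%), *Klhl41* (2.88 to 11.7%) and *Mylk4* (3.79 to 11%) overlapped one another, and *Myl4* (6.15 to 107%) overlapped most genes. The Myog+ Mymk- sums of control replicate 1 came from 33 cells, which limits its shares. With at least 2 UMIs to be positive, Myog+ Mymk- cells numbered 20, 32, 129 and 54, and cells with 1 *Mymk* UMI could fall among them. The listed genes' median log2 fold change at the first step was then 1.42 rather than 0.73. *Mypn* (2.34), *Mybph* (3.32) and *Tnni1* (1.36) were then called higher at that step. The step of a call thus depended on this cut, and the shares were not computed with it.

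Within Mymk+ cells the genes were also compared between cells with 1 or 2 *Mymk* UMIs and those with 3 or more, pooled over samples. The former numbered 8, 12, 83 and 34 and the latter 27, 71, 139 and 118, so the samples weighed unequally in the pools. *Actc1* stood at 208 and 1304 CPM, a ratio of 6.28 and higher with more *Mymk* in 4 of 4 samples. *Klhl41* (69.7 and 336 CPM), *Tpm2* (168 and 578 CPM), *Acta1* (957 and 2629 CPM) and *Mylk4* (114 and 236 CPM) were higher in 4 of 4 samples too, and *Ttn* (200.01 and 539 CPM) in 3. *Tpm1* (165 and 172 CPM), *Tmod1* (32.9 and 33 CPM) and *Ryr1* (23.9 and 30.8 CPM) changed little. The number of *Mymk* UMIs also grows with the depth of a cell, and no test was made on this split.

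**Figure D2:**
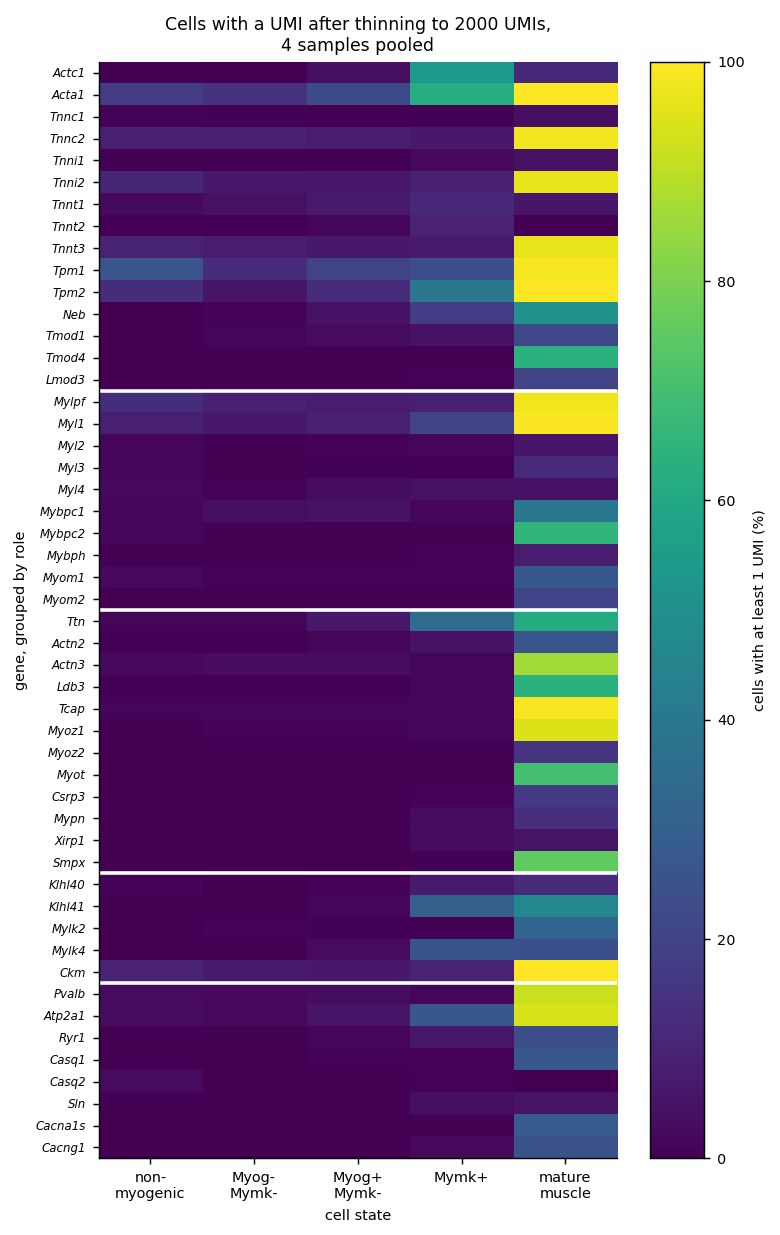
Share of cells, in percent, with at least 1 UMI of a gene after each cell was thinned to 2000 UMIs, by cell state, pooled over the 4 samples and drawn as a color scale, with the genes in rows and white lines between the roles. Actc1 was seen in 54.1% of Mymk+ cells and 0.165% of Myog- Mymk- cells, while Ckm was seen in 9.96% and 7.09%, close to its 9.68% in non-myogenic cells.

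At 2000 UMIs per cell, *Actc1* was detected in 0.165% of 26074 Myog- Mymk- cells, 3.66% of 383 Myog+ Mymk- cells and 54.1% of 482 Mymk+ cells, against 0.717% of 279 non-myogenic cells. *Klhl41* was detected in 0.219%, 1.57% and 30.3%, against 0.717%. *Ttn* was detected in 1.62%, 6.79% and 35.7%, against 1.43%. For these genes the share in Mymk+ cells lay far above that of non-myogenic cells and the share in Myog- Mymk- cells did not. *Acta1*, abundant in fibres, was detected in 14.7% of Myog- Mymk- cells and 17.9% of non-myogenic cells, so not above the share in cells that should lack it, and in 62.2% of Mymk+ cells. *Atp2a1* was detected in 2.01%, 5.74% and 27%, against 3.23%. *Ckm* stayed close to or below its share in non-myogenic cells in all 3 myogenic states, with 7.09%, 6.79% and 9.96% against 9.68%. Before thinning, median depths were 12888 to 18808 UMIs in Mymk+ cells and 6504 to 8001 in non-myogenic cells.

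Mymk+ cells were not alike. Of the 482 thinned Mymk+ cells, 261 had an *Actc1* UMI and 221 did not. *Acta1* was detected in 75.5% of the cells with and 46.6% of those without *Actc1*, *Ttn* in 48.7% and 20.4%, and *Atp2a1* in 33% and 19.9%, each higher with *Actc1* in 4 of 4 samples. *Klhl41* was detected in 42.1% and 16.3% (3 of 4 samples). The cells share libraries and the split uses 1 gene of the list, so this is a description. Of all Mymk+ cells, 36 had no *Myog* UMI, at 0, 4, 19 and 13 per sample. In these, pooled over samples, *Actc1* stood at 10.4 CPM, against 1158 CPM in those with *Myog*. Most of the 36 thus came from α-cdKO samples.

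The 13 tested genes called higher at neither step were *Actn3*, *Ldb3*, *Mybpc1*, *Myl3*, *Mylk2*, *Mylpf*, *Myom1*, *Myoz1*, *Pvalb*, *Sln*, *Tnnc2*, *Tnni2* and *Tnnt3*. Some were called under alternatives. *Sln* was higher at the first step without the low-count filter (1.87), with at least 2 UMIs to be positive (2.84) and with the gate at 2% (2.48). *Tnni2* was higher at the second step without that filter (0.80) and with at least 2000 UMIs per cell (1.06), but lower with the gate at 2% (-1.47). *Myoz1* was lower at the first step with at least 2000 UMIs per cell (-1.17). *Mylpf* stood at 31.3, 184, 83.2 and 40.6 CPM in Myog- Mymk- cells and 38.4, 409.5, 32.1 and 55.5 CPM in Mymk+ cells. *Tnnc2*, fast troponin C, stood at 35.4, 175, 79.6 and 36.4 and then 33.8, 408, 52.7 and 34.4 CPM. In both genes control replicate 2 was the highest sample in each myogenic state, and the other 3 samples stayed within 17.3 to 83.2 CPM in all 3 myogenic states. *Pvalb*, the calcium buffer parvalbumin, stood at 1.54, 181, 4.58 and 3.40 CPM in Mymk+ cells, where only control replicate 2 exceeded 5 CPM.

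To set the myogenic states beside fibre RNA, the mature-muscle profile of each sample was scaled so that its *Ckm* equalled that of the state. In Myog- Mymk- cells, 31 of the 50 genes lay within 2-fold of this scaled profile, 19 lay more than 2-fold above and 0 below, 6 of the 19 more than 10-fold above. *Acta1* (0.98 times the profile), *Mylpf* (0.86), *Tnnc2* (0.86) and *Tcap* (0.99) lay on it, whereas *Tmod1* (30.5), *Mybpc1* (23.8), *Myl4* (12.4), *Tnnt1* (11.6) and *Ryr1* (9.42) lay well above. In Mymk+ cells, 30 of 50 lay more than 2-fold above, 20 of these more than 10-fold, led by *Tnnt2* at 4556 and *Actc1* at 1971 times the profile, with *Ttn* at 122, *Acta1* at 9.86, *Tpm2* at 9.16 and *Mylpf* still at 0.83. *Tnnt2* was low in mature-muscle barcodes, with levels given below, so few UMIs set its ratio. The scaling fixes *Ckm*, so the profile is a description and no share of fibre RNA was estimated.

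**Figure D3:**
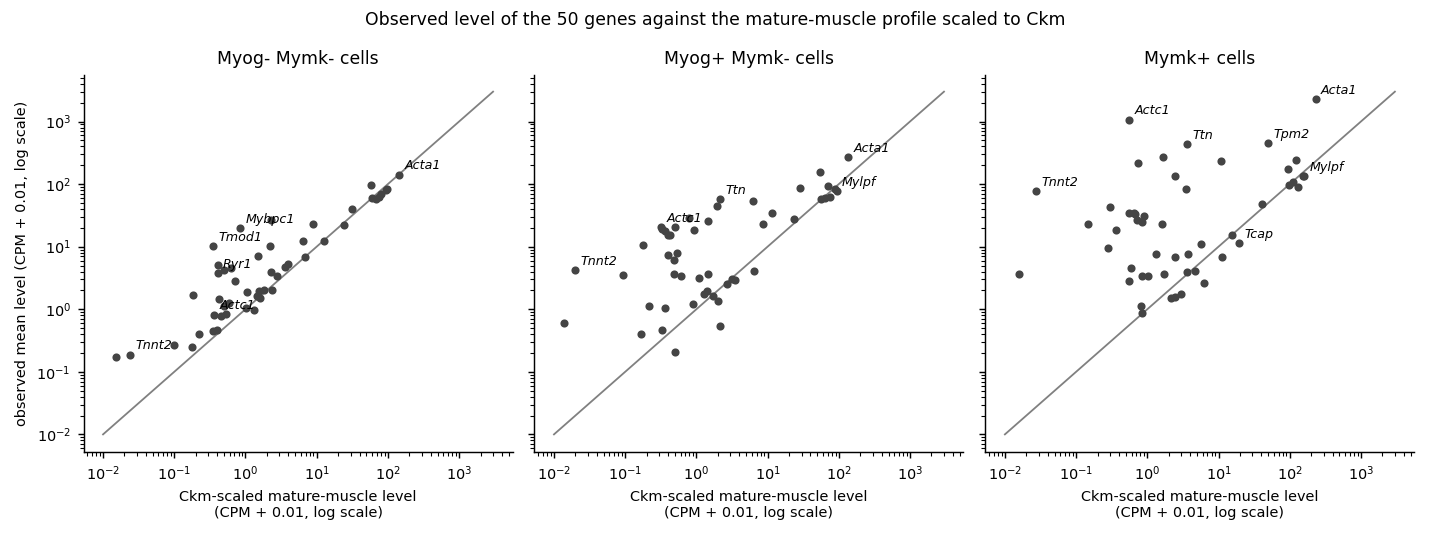
Level of each gene against the mature-muscle profile scaled to the same Ckm level, both as CPM + 0.01 on log scales, in Myog- Mymk-, Myog+ Mymk- and Mymk+ cells (means of 4 samples). Points on the diagonal match the fibre profile; 31 of 50 genes lay within 2-fold of it in Myog- Mymk- cells and 30 of 50 lay more than 2-fold above it in Mymk+ cells.

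Levels in Myog- Mymk- cells were also tested against non-myogenic cells of the same samples. Of 44 tested genes, 6 were higher in Myog- Mymk- cells and 3 lower, where 18.3% of 13204 genes were called higher and 20.3% lower. Higher were *Mylk2* (3.00), *Neb* (1.85), *Mybpc1* (1.60), *Actn3* (1.35), *Myl1* (0.69) and *Tnnt3* (0.56). *Mybpc1* stood at 21.3, 18.3, 20.6 and 18.8 CPM against 17.3, 6.39, 6.69 and 6.95 CPM in non-myogenic cells (1.60 ± 0.30 (SE), adjusted p = 0.000705). *Actn3* stood at 21.4, 38.1, 15.9 and 16.3 against 7.20, 21.3, 12 and 10.4 CPM (1.35 ± 0.27 (SE), adjusted p = 0.0011). In *Mybpc1* the 2 kinds of cells did not overlap, and in *Actn3* they did. *Myl1* and *Tnnt3* changed sign, to -0.13 and -0.14, once myogenic cells with 0.1% or more of UMIs from the 12 fibre genes were left out, an alternative also chosen after seeing the data. That filter took fibre RNA out of the myogenic side alone and left the non-myogenic cells as they were. The median log2 fold change of the listed genes moved from 0.24 to -0.40 with it. The sign change therefore cannot decide whether *Myl1* and *Tnnt3* lay above the non-myogenic level. These 2 calls were also lost with the gate at 0.5%, without the deepest cells, without control replicate 1 (0.56, adjusted p = 0.0848 for *Myl1*, 0.47, adjusted p = 0.132 for *Tnnt3*) and without α-cdKO replicate 1 (0.62, adjusted p = 0.106 and 0.48, adjusted p = 0.149), and *Tnnt3* with DESeq2 and with at least 2000 UMIs per cell. Against endothelial, immune and glial cells alone neither was called. *Neb* was not called without control replicate 1 (1.34, adjusted p = 0.07) or α-cdKO replicate 1 (1.96, adjusted p = 0.0628).

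Lower in Myog- Mymk- cells were *Casq2*, *Tpm2* and *Tpm1*. *Casq2*, cardiac calsequestrin, stood at 0.241, 0.0761, 0.260 and 0.0717 CPM against 20.2, 17, 10.7 and 31.3 CPM (-6.40 ± 0.64 (SE), adjusted p = 3.76e-06). *Tpm2* stood at 26.3, 61.8, 47.3 and 25.5 against 36, 1479.7, 369 and 179 CPM (-2.36 ± 0.46 (SE), adjusted p = 0.000998) and *Tpm1* at 59.4, 150.1, 98.1 and 73.1 against 114, 728, 199 and 186 CPM (-0.90 ± 0.21 (SE), adjusted p = 0.00392). Against endothelial, immune and glial cells alone, a comparison added after seeing the data, *Tpm2* (-0.51, adjusted p = 0.238) and *Tpm1* (-0.36, adjusted p = 0.163) were not called and *Casq2* was too low to test.

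Mature-muscle barcodes were compared with Mymk+ cells of the same samples, which sets adult fibre RNA against RNA of cells with the fusion gene *Mymk*. Fusion itself was not measured. Of 49 tested genes, 46 were higher in mature-muscle barcodes and 2 lower, where 33% of 6829 genes were called higher and 41.3% lower. The median log2 fold change was 6.09 against -0.27 for all tested genes. The largest were *Pvalb* (9.84 ± 0.78 (SE)), *Tnnt3* (9.84 ± 0.57 (SE)), fast troponin T, *Tcap* (9.64), *Mylpf* (9.61), *Tnnc2* (9.56), *Myoz1* (9.33), a calcineurin-binding Z-disc protein of fast fibres, *Myl3* (9.32), the slow essential light chain, *Myot* (9.13), myotilin, *Tnni2* (9.04), fast troponin I, and *Tmod4* (9.03), the tropomodulin of adult muscle. *Mylpf* stood at 28542, 35803, 34403 and 38865 CPM in mature-muscle barcodes and *Tcap* at 5075, 4163, 4496 and 4223 CPM. Each sample exceeded every Mymk+ value of these genes many times over.

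*Actc1* and *Tnnt2* were the 2 genes lower in mature-muscle barcodes. *Actc1* fell to 27.4, 87, 156 and 293 CPM (-2.52 ± 0.32 (SE), adjusted p = 5.74e-06) and *Tnnt2* to 13.7, 2.04, 0 and 11 CPM (-3.73 ± 0.58 (SE), adjusted p = 3.76e-05). No mature-muscle value of either overlapped a Mymk+ value. *Mylk4* did not pass the test, with 199, 177, 119.8 and 84.3 CPM against 191, 258, 194 and 211 CPM in Mymk+ cells (0.11 ± 0.18 (SE), adjusted p = 0.601). In CPM it was lower in mature-muscle barcodes in 3 of the 4 samples. Small rises were found for *Klhl41*, at 276, 358, 317 and 462 CPM (1.13 ± 0.17 (SE)), *Xirp1* (1.16) and *Ttn*, at 869.5, 776, 894 and 546 CPM (1.53 ± 0.16 (SE)). *Klhl40* was called too (1.14), but its levels of 54.7, 69, 70.2 and 29.3 CPM lay above those of Mymk+ cells in both controls and below them in both α-cdKO samples, and without control replicate 2 the call was lost (1.10, adjusted p = 0.0718). Log2 fold changes here use TMM scaling, which weighs the changed makeup of fibre RNA, so their signs can differ from those in CPM. *Casq2* was not tested, with at most 7.82 CPM in any mature-muscle sum.

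Genes of slow fibres varied between samples of mature-muscle barcodes. *Tnnc1*, the slow and cardiac troponin C, stood at 1385, 850.4, 223 and 909 CPM, *Tnnt1* at 1563, 760.0, 187 and 1045 CPM and *Myl2* at 2360.4, 1329.6, 339.8 and 1232 CPM. α-cdKO replicate 1 was the lowest sample in all 3, and control replicate 1 the highest. *Sln*, sarcolipin, an inhibitor of the SERCA pump, had the same lowest and highest sample, at 786, 87, 20.7 and 495 CPM. The genotypes overlapped for *Tnnc1*, *Tnnt1* and *Sln* but not for *Myl2*.

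Paralogs were set against each other within a sample as the share of their summed UMIs taken by the first gene named, often a form typical of young or slow muscle. *Actc1* took 30.1, 32.6, 30.9 and 33.4% of α-actin UMIs in Mymk+ cells, with the 4 samples close together, and 0.0601, 0.180, 0.290 and 0.470% in mature-muscle barcodes. In Myog+ Mymk- cells its share was 22.4, 1.60, 13.6 and 4.70% of α-actin UMIs, lowest in control replicate 2. *Tnnt2* took 51.2, 25, 75.1 and 79.6% of the UMIs of *Tnnt2* and *Tnnt3* in Mymk+ cells and at most 0.0523% in mature-muscle barcodes. The share was lowest in control replicate 2, the sample with most mature-muscle barcodes. *Tnnt1* against *Tnnt3* (68.8, 21.2, 74.3 and 80.8%) and *Tnni1* against *Tnni2* (27.9, 5.24, 45.4 and 33%) showed the same low value in that sample. *Actn2* took 64.7, 50, 86.9 and 78.6% of α-actinin UMIs in Mymk+ cells, 6.42, 2.91, 6.73 and 7.27% in Myog- Mymk- cells and 11.2, 4.34, 7.59 and 6.10% in mature-muscle barcodes.

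*Tmod1* took 100, 87.3, 96.3 and 100% against *Tmod4* in Mymk+ cells and 19.3, 17.7, 19.5 and 20.5% in mature-muscle barcodes. *Mybph* took 100, 35.3, 87 and 95.8% against the fast *Mybpc2*, then 8.41, 4.76, 6.34 and 7.31%. *Myl4* took 35.1, 6.54, 12.2 and 13% against *Myl1*, then 1.30, 0.558, 0.0671 and 0.569%. In these 3 pairs the first gene named took a larger share in every Mymk+ sum than in any mature-muscle sum. A lower share was not a lower level: *Tmod1*, *Mybph* and *Myl4* were all called higher in mature-muscle barcodes than in Mymk+ cells. For *Myl4* the log2 fold change was 2.50, and the call was lost with the gate at 2% (0.29, adjusted p = 0.592). *Tnnc1* against *Tnnc2* (18.5, 0.491, 7.47 and 5.21%), *Myl2* against *Mylpf* (7.41, 3.17, 36.4 and 14.5%) and *Myoz2* against *Myoz1* (0, 3.33, 47.1 and 43.8%) varied widely among Mymk+ sums and overlapped their mature-muscle shares. So did *Myom1* against *Myom2* (50, 75, 40 and 59.1%), both M-band proteins. *Casq2* took 100, 40, 70 and 66.7% of calsequestrin UMIs in Mymk+ cells, on 5 or more UMIs in each sample. The shares carry counting error and, since tags are 3′ counts, depend on how well each paralog was captured.

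**Figure D4:**
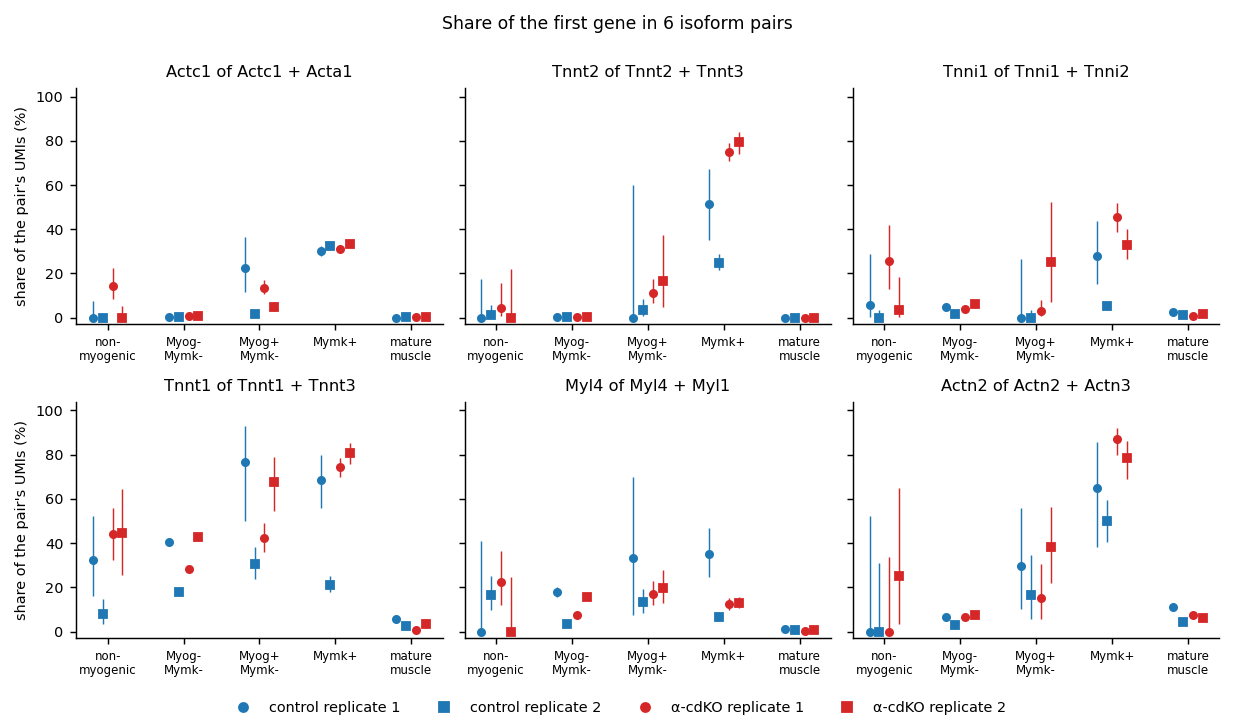
Share, in percent, of the UMIs of a pair taken by the first-named gene, by cell state, with 1 point per sample (controls in blue, α-cdKO in red) and exact 95% binomial intervals for counting error. The Actc1 share of α-actin UMIs lay between 30.1% and 33.4% in the 4 Mymk+ sums and under 0.5% in the 4 mature-muscle sums.

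Other genes of the same structures were counted from 2 further lists, also drawn up with earlier results of these data known. Of 27 further sarcomere and Z-disc genes, 20 were tested, 5 were higher and 2 lower at the first step, where 15.9% and 14.2% of all tested genes were, and 12 were higher and 4 lower at the second, against 16% and 19.4%. As shares of the 20, these were 25% and 10%, then 60% and 20%. Embryonic myosin heavy chain *Myh3* rose by 4.02 and then 3.51 on the log2 scale, perinatal *Myh8* by 5.68 and 2.84, and *Trim55*, a titin-associated ubiquitin ligase, by 3.83 and 4.11. The myosin chaperone *Unc45b* (3.05), its partner methyltransferase *Smyd1* (2.85) and the actin nucleator *Lmod2* (3.55) rose at the second step. *Tpm3*, the tropomyosin of slow fibres and of non-muscle cells, fell by 0.83 and then by 1.26. Of 22 further triad and calcium genes, 17 were tested, 7 (41.2%) were higher and 0 lower at the first step, and 10 (58.8%) higher and 1 (5.88%) lower at the second. *Stac3*, which couples the voltage sensor to release, rose by 2.98 and 1.35, *Srl*, sarcalumenin, by 2.76 and 2.64, the T-tubule proteins *Cav3* by 2.59 and 1.65 and *Bin1* by 1.46 and 1.33, and the store-operated channel *Orai1* by 1.26 and 1.31. *Cacna1s*, the pore of the voltage sensor that *Stac3* serves, was not tested and stood at 0 to 2.01 CPM in Mymk+ cells.

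The genotypes were compared for all myogenic cells together, for Myog- Mymk- cells, for Myog+ or Mymk+ cells and for mature-muscle barcodes, and the second step was compared between genotypes by an interaction term. edgeR called 0 of the 50 genes in any of the 5 comparisons, and DESeq2 also called 0. At an unadjusted p under 0.05 there were 6 of 50 tested genes in all myogenic cells, 4 of 49 in Myog- Mymk- cells, 10 of 39 in Myog+ or Mymk+ cells, 6 of 48 in mature-muscle barcodes and 8 of 38 for the interaction. At that threshold stood 6.9%, 7.47%, 4.7%, 2.89% and 7.24% of all tested genes. Of the 10 genes in Myog+ or Mymk+ cells, 8 were lower in α-cdKO samples. Of all tested genes, 0.068% were called higher and 0.102% lower in all myogenic cells (0.17% in all), 0.0828% higher and 0.0966% lower in Myog- Mymk- cells (0.179%), 0.0106% higher and 0% lower in Myog+ or Mymk+ cells, 0.0699% higher and 0% lower in mature-muscle barcodes, and 0.0332% higher and 0.0111% lower for the interaction (0.0443%). The design recovered 83% of simulated 4-fold changes in Myog+ or Mymk+ cells and 35% of 2-fold changes. It recovered 77% and 29% in mature-muscle barcodes, and 53% and 17% for the interaction. In all myogenic cells the shares were 87% and 43%, and in Myog- Mymk- cells 90% and 47%. Differences of these sizes, and smaller ones, could thus be missed.

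In Myog+ or Mymk+ cells the 50 genes summed to 3177, 6832, 4253 and 4918 CPM, with control replicate 2 highest. *Actc1* stood at 518, 809, 589 and 848 CPM (0.13 ± 0.25 (SE), α-cdKO over control). *Acta1* stood at 1215, 1808, 1371 and 1799 CPM (0.09 ± 0.22 (SE)). In both actins control replicate 2 and α-cdKO replicate 2 were the higher samples, and the genotypes overlapped. *Tnnt2* stood at 18.9, 62.5, 68.3 and 55.9 CPM (0.52 ± 0.39 (SE)) and *Myl4* at 27, 28.8, 23 and 34.6 CPM (0.05 ± 0.28 (SE)), and both overlapped. *Ttn* stood at 219, 287, 360.0 and 322 CPM (0.44 ± 0.18 (SE), adjusted p = 0.965), with both α-cdKO samples above both controls. *Ryr1* stood at 36, 27, 24 and 19.7 CPM (-0.48 ± 0.25 (SE), adjusted p = 0.965), with both α-cdKO samples below both controls. Neither passed the adjusted test.

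Fibre genes followed control replicate 2. *Mylpf* stood at 29.7, 341, 45.7 and 43.8 CPM (-2.10 ± 0.74 (SE), adjusted p = 0.965), *Tnnt3* at 21.6, 235, 46.7 and 19.2 CPM (-2.01 ± 0.76 (SE), adjusted p = 0.965) and *Ckm* at 21.6, 214, 61.5 and 40.00 CPM (-1.28 ± 0.68 (SE), adjusted p = 0.965). *Sln* stood at 1.80, 68.3, 15.2 and 7.95 CPM (-1.73 ± 0.81 (SE), adjusted p = 0.965). Control replicate 2 exceeded every other sample in these 4 genes, and control replicate 1 was at or near the lowest. Without control replicate 2 the log2 differences turned to 0.65 for *Mylpf*, 0.67 for *Tnnt3*, 1.29 for *Ckm* and 2.72 for *Sln*, and 7 genes were called higher in α-cdKO cells (*Tnnt2*, *Tpm2*, *Myl1*, *Smpx*, *Klhl40*, *Klhl41* and *Ckm*), or 7 of 45 tested, where 0.58% of all genes were. Without control replicate 1, 11 of 48 were called lower, against 0.324% of all genes. Without α-cdKO replicate 1, 8 of 43 were, against 0.237%, and without α-cdKO replicate 2, 9 of 45, against 0.512%, with 1 higher, against 0.512% too. Each such comparison left a genotype with 1 sample, assumed to vary like the others. The sign of these differences thus depended on control replicate 2.

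Counted without a test, 6 of the 50 genes had both α-cdKO samples above both controls in Myog+ or Mymk+ cells and 4 had both below, or 12% and 8%, where 16.2% and 18.3% of 10731 genes with at least 20 UMIs did so. Over all myogenic cells the counts were 7 above and 4 below, against 17.8% and 19.4% of 15923 genes. These shares lay below the background in each case. For *Klhl40*, the interaction of genotype with the second step was 2.29 ± 0.85 (SE), adjusted p = 0.547, and for *Mybpc1* 2.12 ± 0.53 (SE), adjusted p = 0.305. Neither difference between genotypes was called, in a fit that recovered 53% of simulated 4-fold changes.

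**Figure D5:**
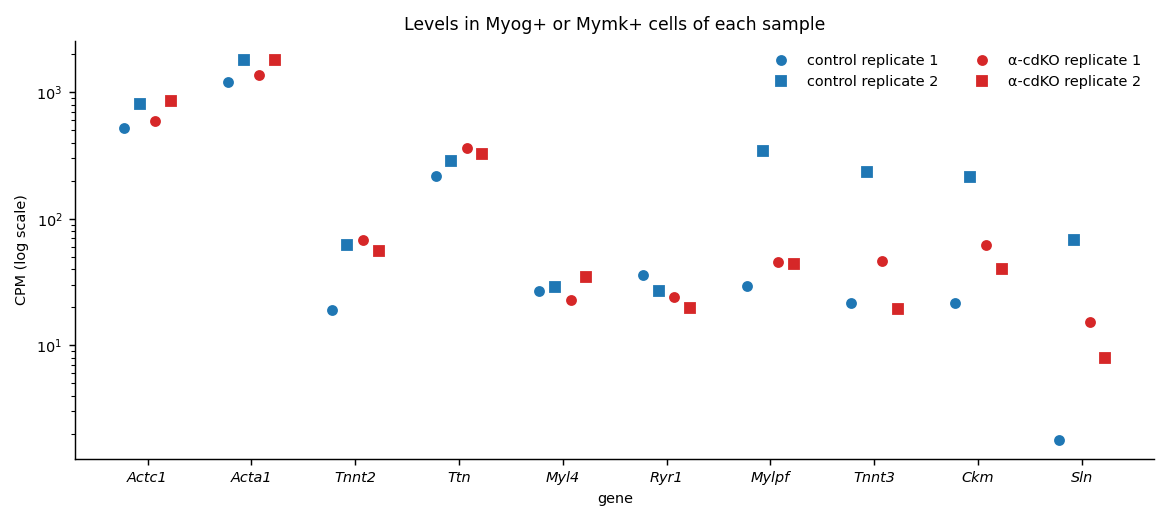
Level of each named gene in Myog+ or Mymk+ cells per sample, in CPM on a log scale, with controls in blue and α-cdKO samples in red. For Actc1 and Acta1 the 2 genotypes overlapped, and for Mylpf, Tnnt3, Ckm and Sln control replicate 2 stood above the other 3 samples.

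In mature-muscle barcodes *Actc1* differed most between genotypes. Its level was 27.4, 87, 156 and 293 CPM, on 14, 256, 151 and 80 UMIs, and both α-cdKO samples lay above both controls. The log2 difference was 1.90 ± 0.46 (SE), adjusted p = 0.52, so it was not called over all tested genes. With replicate number as a block, which did not pair the samples, *Actc1* was called higher. *Acta1* (45454, 48139, 53569 and 62066 CPM, 0.45 ± 0.17 (SE), adjusted p = 0.999) showed the same order with a smaller difference. *Mylk4* (199, 177, 119.8 and 84.3 CPM, -0.70 ± 0.25 (SE), adjusted p = 0.999) showed the opposite order. These barcodes made up different shares of the samples, and whether that moved their RNA was not tested.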

How the data were processed

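Single cell RNA-sequencing libraries (10x Genomics 3′ v3 chemistry, 30000 cells loaded per well) were made from tdTomato+ cells of 2 control and 2 α-cdKO samples. The deposited matrices hold counts of UMIs per gene and barcode, made by the authors with Cell Ranger 7.1.0 on GRCm38 (mm10) and not normalized, and the submitters' processing notes also name Seurat 4.0.3. Every UMI count of the files was used as deposited. The reads were not used, and the number of UMIs per sample and per state sets the precision of each value.

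The 50 genes, the gene lists and the tests were chosen with earlier results of these data known. Kept cells were assigned in turn to mature-muscle barcodes, non-myogenic cells, Mymk+, Myog+ Mymk- and Myog- Mymk- cells. No doublet caller was run, and leaving out the deepest cells (0.8% per 1000 kept cells) was an alternative. For each sample, the UMIs of all cells of a state were added up, and CPM is a gene's sum divided by the state's total, times 1000000. Sums were tested with edgeR 4.0.16 in R 4.3.3 (filterByExpr, TMM, glmQLFit and glmQLFTest), with samples as blocks for contrasts between states and genotype alone for contrasts between genotypes, with calls at a Benjamini-Hochberg adjusted p under 0.05 over all tested genes. Shares of cells were compared by a two-sided exact permutation test, and intervals (exact binomial, 95%) cover counting error only. Cells with fewer than 2000 UMIs were left out where cells were thinned. Tests were checked on simulated data, in which 77% of 2-fold and 95% of 4-fold changes were recovered at the first onset step. Nothing in the labels says more of the samples than their genotype and number, so p-values of genotype comparisons measure the spread between these pools of mice. In contrasts between states, with samples as blocks, p-values measure how much the change between states varied from sample to sample.

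Genes were named by a rule: up to 10 per contrast and direction with the largest called change and at least 10 CPM in the higher state, 10 genes in every genotype comparison, both genes of each of 13 paralog pairs, and all genes not tested. Alternatives were DESeq2 1.42.0, RLE size factors, no filter on low counts, at least 2000 UMIs per cell, gates at 0.5% and 2%, at least 2 UMIs to be positive, each sample left out, a replicate block and thinning to 4000 UMIs. Leaving out myogenic cells with 0.1% or more fibre UMIs, restricting the non-myogenic cells and crossing the block were added after seeing the data. Tables were handled with Python 3.11.15, pandas 2.3.3, numpy 2.4.6 and scipy 1.17.1.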

Additional observations from a re-analysis of the deposited data

Results flagged for a closer look

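For 3 of the genes tested at a step, every control sample moved one way between states and every α-cdKO sample the other way. *Mybpc1* was higher in Myog+ Mymk- than in Myog- Mymk- cells by 17.7 CPM in control replicate 1 and 17.0 CPM in control replicate 2, and differed by -0.0869 CPM in α-cdKO replicate 1 and -0.419 CPM in α-cdKO replicate 2. *Pvalb* differed over the same step by 0.455 and 33.9 CPM in the controls and by -8.96 and -2.65 CPM in the α-cdKO samples. The difference in control replicate 1 was under 1 CPM. *Klhl40* differed between mature-muscle barcodes and Mymk+ cells by 48.6 and 26.0 CPM in the controls and by -11.2 and -11.9 CPM in the α-cdKO samples. These differences between genotypes were not tested. With 2 samples per genotype, such a pattern can arise by chance among 50 genes.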

How the results depend on the processing

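At the first onset step, 19 genes were called higher and 0 lower. The lower count became 7 without the filter on low counts, 2 with at least 2000 UMIs per cell, 1 with at least 2 UMIs to be positive, 1 without myogenic cells of 0.1% or more fibre UMIs, and 0 to 4 with each sample left out, where 4 was reached without control replicate 2. At the second step the 23 genes called higher became 13 without the deepest cells, which left 28 genes to test, and the 3 called lower became 16 with the gate at 2%. With that gate *Tnnt1*, *Myl1*, *Myl2*, *Myl4* and *Ckm* turned to -0.08, -0.20, -1.26, -0.45 and -1.38. *Tnni1* (0.55, adjusted p = 0.609) and *Mybph* (2.34, adjusted p = 0.0743) were then not called. With at least 2 UMIs to be positive, the second step lost the calls of *Mybph* (1.52), *Ryr1* (0.66), *Tnnt1* (0.51), *Myl2* (0.49), *Tmod1* (0.18), *Myl4* (0.13) and *Actn3* (-1.05). For Myog- Mymk- against non-myogenic cells, the 6 called higher became 16 with the gate at 2% and ran from 3 (without control replicate 1) to 11 (without control replicate 2), and the 3 called lower became 0 against endothelial, immune and glial cells alone. *Myl1* and *Tnnt3* turned to -0.13 and -0.14 without myogenic cells of 0.1% or more fibre UMIs, a filter put on the myogenic side alone. The gate at 2% leaves fibre RNA among myogenic cells: the mean summed level of the 50 genes became 1770.27 CPM in Myog- Mymk- and 5846 CPM in Myog+ Mymk- cells. Thinning to 4000 UMIs gave detection in 60.0% of Mymk+ cells for *Actc1*, 75.5% for *Acta1*, 40.9% for *Ttn* and 15.3% for *Ckm*. The contrast of mature-muscle barcodes with Mymk+ cells kept 45 or 46 genes higher and 2 lower with each sample left out.

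Between genotypes 0 genes were called. The gate at 2% gave 1 lower in all myogenic cells, 1 lower in Myog- Mymk- cells, 2 lower in Myog+ or Mymk+ cells and 1 higher in mature-muscle barcodes. Without the low-count filter 11 were lower in Myog+ or Mymk+ cells, 3 were higher and 2 lower in mature-muscle barcodes, and 2 were higher and 2 lower for the interaction. With each sample left out, 0 to 2 were lower in Myog- Mymk- cells (2 without control replicate 1), 0 to 7 higher and 0 to 11 lower in Myog+ or Mymk+ cells, 0 to 2 higher and 0 to 8 lower in mature-muscle barcodes (8 without α-cdKO replicate 2), and 0 to 1 lower for the interaction (1 without α-cdKO replicate 2). In Myog+ or Mymk+ cells the log2 difference then ran from -0.18 to 0.53 for *Actc1*, -0.19 to 0.44 for *Acta1*, -0.0097 to 1.77 for *Tnnt2*, -2.82 to 0.67 for *Tnnt3*, -2.93 to 0.65 for *Mylpf*, -0.29 to 0.36 for *Myl4*, -2.08 to 1.29 for *Ckm* and -2.54 to 2.72 for *Sln*. With the gate at 2% it was -0.15 for *Acta1* and -1.19 for *Myl4*, and without the deepest cells -0.52 for *Myl4*. The causes were not tested.

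The replicate numbers did not pair the samples: deviations of same-numbered samples correlated at -0.20, -0.22, -0.07 and 0.04 over genes in all myogenic cells, Myog- Mymk- cells, Myog+ or Mymk+ cells and mature-muscle barcodes. With the replicate block, 2 genes (*Actc1* and *Myl1*) were higher in mature-muscle barcodes and 0 in the other comparisons of genotypes, and crossing the block in all myogenic and in Myog- Mymk- cells gave 0.

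The limits lie in depth and number. Control replicate 1 had 33 Myog+ Mymk- and 35 Mymk+ cells, so a few UMIs set its values, and 12 of the 50 genes were too low to test at onset. Most mature-muscle barcodes came from control replicate 2, and the part of fibre RNA in single cells was not tested.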
